A study of Danio rerio with 6 samples.

Results

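Apolipoproteins are the proteins that hold lipid particles together in blood and in the fluid around the yolk, and 10 of the 31901 genes in a table of zebrafish larval expression were chosen by symbol as the apolipoprotein genes of liver and yolk syncytial layer. They are the 3 ApoB paralogs apoba, apobb.1 and apobb.2, the ApoA genes apoa1a, apoa1b and apoa2, the ApoC genes apoc1 and apoc2, and the ApoE genes apoea and apoeb. Poly(A) RNA was sequenced from 3 pools of wild-type larvae and 3 pools of dscaml1 mutant (dscaml1-/-) larvae, each pool holding 6 to 11 larvae at 3.5 to 4 days post-fertilization (dpf). Both genotypes were siblings from heterozygous parents in a mixed AB and TL background, were raised under the same standard conditions and received no treatment, and the mutants were homozygous for the vt1 allele, a small frameshift deletion. The mutation was germline, present in every tissue, and larvae rather than liver or yolk were extracted, so each value is an average over all tissues extracted from a pool. The labels give the whole animal as the tissue, whereas the methods describe its anterior part, and which of these was extracted is not settled here. How much liver, gut and yolk entered each pool is therefore not known.

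ApoB is the large structural protein that stays with a particle from its assembly to its uptake, one molecule to a particle. It is loaded with triglyceride by the microsomal transfer protein Mttp in the liver, the intestine and, in fish, the yolk syncytial layer, which passes yolk lipid to the body before the larva feeds. ApoA1 and ApoA2 belong to high-density lipoprotein, ApoC2 switches on lipoprotein lipase, ApoC1 slows the removal of particles, and ApoE binds the receptors that take particles up.

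The values are normalized counts, which are the reads of a gene divided by a size factor for its library. The libraries held 21863982 to 23516860 reads in wild type and 18725190 to 20476688 in mutants. Replicate 2 of both genotypes stood apart from the other 4 libraries, and the fit used here, limma on log2(normalized count + 1), holds a term for that difference beside genotype and covers 21302 genes whose mean reached 5. Genes with an adjusted p (Benjamini-Hochberg) under 0.05 are called here, and 21 were, 16 of them lower and 5 higher in mutants. A block on replicate number gave 47. The mutated gene, dscaml1 on chromosome 15, had values of 333, 395 and 375 in the wild-type pools and of 399.6, 336 and 355 in the mutant pools (log2 fold change −0.02, adjusted p = 0.967 from limma). A frameshift need not change the level of a transcript, so this checks no label.

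All 8 apolipoprotein genes that could be tested had a lower estimate in mutants, as did 10492 of all 21302 tested genes. Of the 8, 1 gene, apoba, was called. By the same rule 0.0751% of all tested genes were called lower. The other 2, apoc1 and apoeb, were listed at 0 in every library. The median log2 fold change of the 8 was −0.63, from −1.77 for apobb.2 to −0.15 for apoa2, beside 0.01 over all tested genes. The genes lay below wild type in all 3 pairs of equal replicate number in 7 of 8 cases, against 20.6% of all tested genes, and all 3 mutant libraries lay below all 3 wild-type libraries in 3 of 8 cases, against 4.55%. An unadjusted p under 0.05 with a lower estimate was found for 7 of 8, against 7.9%. With genotype as the only term, the unadjusted limma p stayed under 0.05 for apoba (0.00326) and apobb.1 (0.0196) alone. DESeq2 on the recovered reads called 5 of the 8 lower, against 1.82% of all tested genes. The genes were chosen with earlier results of these data known, so these shares are a description and no independent support. In these bulk samples, fewer cells of a type and less RNA per cell cannot be told apart.

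**Figure D1:**
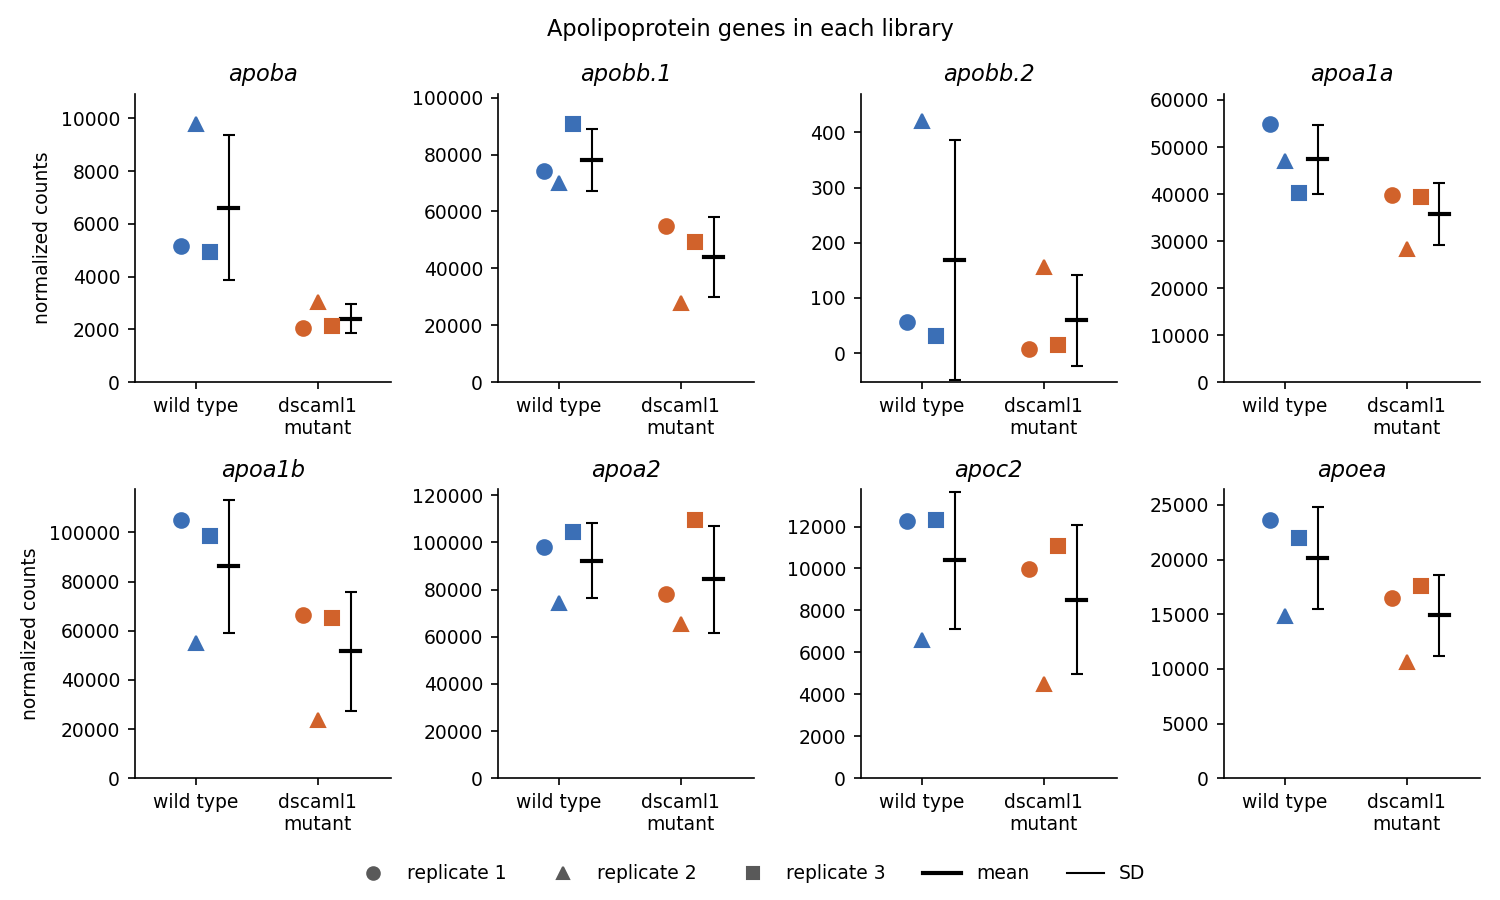
Normalized counts (y axis, a separate scale for each gene) of the 8 apolipoprotein genes with counts, in the 3 wild-type (blue) and 3 dscaml1 mutant (orange) libraries, with symbols for the replicate number and the mean and SD (n = 3) beside them; the axis of apobb.2 runs below 0 because its SD exceeds its mean. The highest apoba value in mutants was 3035 and the lowest in wild type 4919, whereas for apobb.2 the mutant replicate 2 value of 155 lay above 2 of the wild-type libraries.

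The ApoB paralogs had the 3 largest estimates of the 8 genes. apoba (ENSDARG00000042780, chromosome 17 of GRCz11 from 30704068 to 30727966) had 5175, 9772 and 4919 normalized counts in wild-type replicates 1, 2 and 3. In mutants the replicates had 2050, 3035 and 2133. No mutant library therefore reached the lowest wild-type one, and replicate 2 was the highest library of either genotype. The means were 6622 ± 2731 and 2406 ± 547 (SD, n = 3 pools each). The limma estimate, turned back from the log2 scale, put mutants at 37.7% of wild type. The log2 fold change was −1.41 (SE 0.11, 95% interval −1.67 to −1.15, adjusted p = 0.0226 from limma), and apoba had the second lowest p of all tested genes. The pairs of equal replicate number differed by −1.34, −1.69 and −1.21 on the log2 scale, so apoba fell in each of them. edgeR gave it an adjusted p of 0.0352 and DESeq2 one of 1.55e-20.

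The direction of apoba was the same with each library left out, and its call was not. The log2 fold change then lay between −1.47 and −1.27 in limma. The adjusted p was 0.0827, 0.112 and 0.0939 without wild-type replicates 1, 2 and 3. It was 0.0476, 0.129 and 0.0572 without mutant replicates 1, 2 and 3, so the call was lost in 5 of these 6 fits. Where one replicate 2 library was left out, the replicate 2 term took up the other, so that fold change rests on replicates 1 and 3. Without both replicate 2 libraries the log2 fold change was −1.27 and the adjusted p 0.132 from limma, and with genotype as the only term the adjusted p was 0.9999 at the full estimate of −1.41.

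apobb.1 (ENSDARG00000022767, chromosome 20 from 31269778 to 31285980) gave by far the most reads of the 3 paralogs. Its wild-type replicates had 74045, 70066 and 90582 normalized counts. Those of the mutants had 54719, 27925 and 49319. All mutant libraries again lay below all wild-type libraries, with the lowest value in mutant replicate 2. The means were 78231 ± 10880 and 43988 ± 14170 (SD, n = 3), and the limma estimate, turned back from the log2 scale, put mutants at 54.3% of wild type. The log2 fold change of −0.88 (SE 0.16, 95% interval −1.26 to −0.50) did not pass the threshold in limma (adjusted p = 0.119) and passed it in DESeq2 (adjusted p = 0.000175). Without both replicate 2 libraries it was −0.66 (adjusted p = 0.224 from limma).

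apobb.2 (ENSDARG00000075016, chromosome 20 from 53439665 to 53470252) had the fewest reads of the paralogs and the widest spread. Its wild-type replicates had 56.9, 420.3 and 31.3 normalized counts, from 98, 729 and 53 reads. Mutant replicates 1, 2 and 3 had 7.15, 155 and 14.7, from 11, 243 and 20 reads. The groups overlapped, because mutant replicate 2 exceeded wild-type replicates 1 and 3, yet the mutant library was the lower one in each pair, by −2.83, −1.43 and −1.04 on the log2 scale. For mutant replicate 1 the exact Poisson interval of the value was 3.57 to 12.8 normalized counts, and it covers counting error only. In limma the log2 difference was −1.77 (SE 0.33, 95% interval −2.53 to −1.01), with an adjusted p of 0.119, against 8.04e-05 in DESeq2. Without both replicate 2 libraries it was −1.94 (adjusted p = 0.242 from limma).

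**Figure D2:**
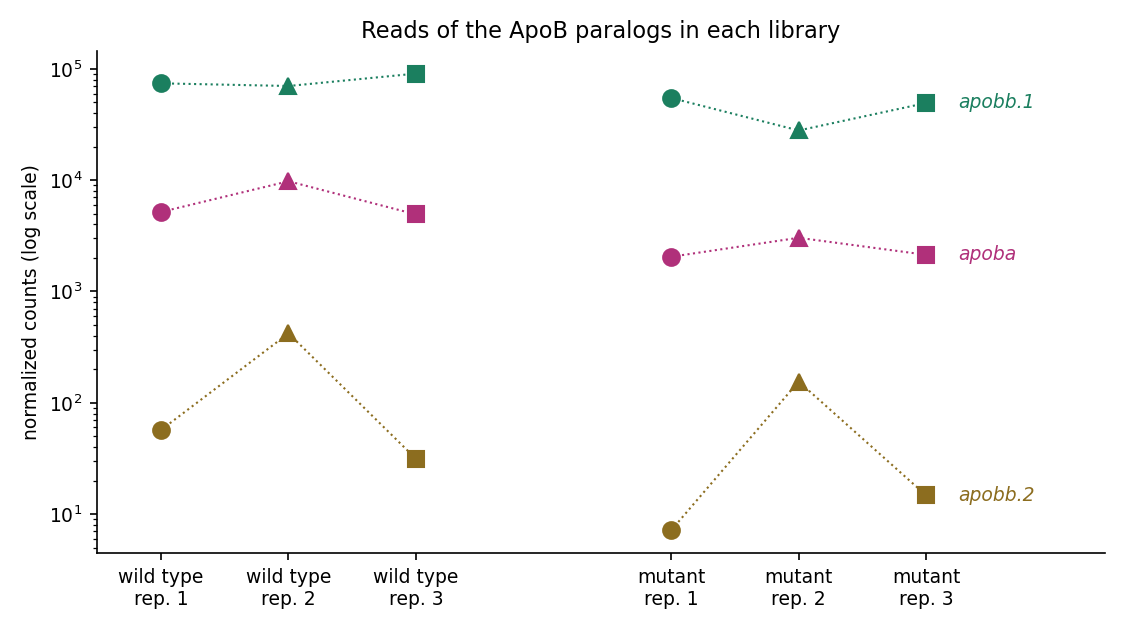
Normalized counts (y axis, log scale) of apobb.1, apoba and apobb.2 in each of the 6 libraries (x axis, with symbols for the replicate number; dotted lines join the libraries of a genotype). The order of the paralogs was the same in every library, and apobb.2 had 420.3 and 155 normalized counts in replicate 2 against 7.15 to 56.9 in the other libraries.

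The comparison of the ApoB paralogs asks whether they kept their proportion of the ApoB reads. Gene lengths were not used here, so reads are compared and not transcripts. The summed ApoB reads were 85022 ± 9115 normalized counts in the wild-type pools and 46452 ± 13545 in the mutant pools (SD, n = 3), which is 54.6% of the wild-type mean. apobb.1 held 91.8% ± 3.99 of them in wild type and 94.0% ± 3.68 in mutants. apoba held 7.95% ± 3.72 and 5.84% ± 3.40, and apobb.2 held 0.209% ± 0.273 and 0.180% ± 0.276 (SD, n = 3). The differences between genotypes in these shares were all smaller than the SD of either group, a spread that replicate 2 dominates. Within pairs of equal replicate number the shares moved one way: that of apoba was 6.53% against 3.61% in pair 1, 12.2% against 9.75% in pair 2 and 5.15% against 4.14% in pair 3, wild type first. The share of apobb.1 was higher and that of apobb.2 lower in the mutant library of all 3 pairs.

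For each normalized count of apoba there were 14.3, 7.17 and 18.4 of apobb.1 in wild-type replicates 1, 2 and 3. The corresponding mutant ratios were 26.7, 9.20 and 23.1. Replicate 2 had the lowest ratio in both genotypes, and the ratio was higher in the mutant library of every pair. The log2 ratio of apoba to apobb.1 differed by −0.53 between mutants and wild type, by −0.90, −0.36 and −0.33 in the pairs (p = 0.5, exact two-sided permutation test, 0.75 adjusted over 3 ratios). That test ignores the pairing and the shift of replicate 2. With signs flipped within the pairs, the exact p was 0.25, the smallest that 3 pairs allow. The smallest p that 3 against 3 pools allow is 0.1, so no such ratio could pass the threshold in either test. The unequal size of the fall in apoba and of the estimate for apobb.1 was thus not shown to be a difference between these paralogs. That they kept their proportion was not shown either.

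Ratios to apobb.2 varied more between replicates than between genotypes. The apobb.1 reads were 1301, 167 and 2891 times those of apobb.2 in wild type and 7655, 180.0 and 3350.5 times in mutants. The log2 ratio of apobb.2 to apobb.1 was lower by 0.89 in mutants on average (difference −0.89, p = 0.5, adjusted 0.75, exact permutation test), with pair differences of −2.39, −0.10 and −0.16. Pair 1 had by far the largest difference, and all 3 pairs had the same sign. With signs flipped within the pairs the exact p was 0.25, again the smallest that 3 pairs allow. Without both replicate 2 libraries the difference was −1.28. It was 0.17 without mutant replicate 1 and 0.28 without wild-type replicate 2, but these means hold unequal numbers of replicate 2 libraries in the 2 genotypes. The log2 ratio of apoba to apobb.2 differed by 0.36 (p = 0.8, adjusted 0.8, exact permutation test), with pair differences of 1.49, −0.25 and −0.16, of mixed sign. This difference was 0.66 without both replicate 2 libraries. It was −0.41 without mutant replicate 1 and −0.42 without wild-type replicate 2, with the same imbalance. The symbols of apobb.1 and apobb.2 are those of tandem copies, but the annotation places them 22.2 Mb apart on chromosome 20.

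Of the ApoA genes, apoa1b (ENSDARG00000101324, chromosome 15 from 102925 to 108414) had the largest estimate. It is one of the paralogs for ApoA1, the main protein of high-density lipoprotein. Wild-type replicates 1, 2 and 3 had 104878, 55176 and 98627 normalized counts. Mutant replicates had 66203, 23487 and 65008. The groups overlapped only through the low wild-type replicate 2, and the mutant library was lower in each pair, by −0.66, −1.23 and −0.60 on the log2 scale. Its log2 difference was −0.83 (SE 0.14, 95% interval −1.16 to −0.51), with an adjusted p of 0.110 in limma and 3.94e-05 in DESeq2. Without both replicate 2 libraries it was −0.63 (adjusted p = 0.214 from limma). apoa1b lies on the chromosome that carries dscaml1, which begins at 12071037.

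apoa1a (ENSDARG00000012076, chromosome 5 from 37978501 to 37981521), the other ApoA1 gene, had 54805, 46937 and 40323 normalized counts in wild type, against 39754, 28225 and 39470 in mutants. The groups did not overlap, but mutant replicates 1 and 3 lay just under the lowest wild-type library. The estimate was −0.41 on the log2 scale (SE 0.15, 95% interval −0.77 to −0.05, adjusted p = 0.303 from limma), and the replicate 3 pair differed by −0.03 only.

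apoa2 (ENSDARG00000015866, chromosome 16 from 23978978 to 23980354), which encodes the second protein of high-density lipoprotein, had the smallest estimate of the 8. The wild-type pools had 98223, 74122 and 104434 normalized counts. The mutant pools had 78320, 65209 and 109325. The highest of all 6 values was that of mutant replicate 3, and the groups overlapped throughout. Its estimate was −0.15 on the log2 scale (SE 0.14, 95% interval −0.47 to 0.18, adjusted p = 0.684 from limma), an interval that still allows a fall as large as the estimate for apoa1a or apoc2.

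apoc2 (ENSDARG00000092155, chromosome 16 from 23984179 to 23994642), the activator of lipoprotein lipase, had 12254, 6601 and 12292 normalized counts in wild type, against 9983, 4471 and 11083 in mutants. Both replicate 2 libraries lay below all others, and the mutant library was lower in each pair, by −0.30, −0.56 and −0.15. The log2 fold change was −0.34 (SE 0.11, 95% interval −0.59 to −0.09, adjusted p = 0.245 from limma).

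apoea (ENSDARG00000102004, chromosome 19 from 10855158 to 10859694), the ApoE gene with counts, had 23582, 14793 and 21964 normalized counts in wild-type replicates 1, 2 and 3. Mutant replicates 1, 2 and 3 had 16466, 10662 and 17596. Wild-type replicate 2 was the only wild-type library within the mutant range, and the pairs differed by −0.52, −0.47 and −0.32 on the log2 scale. The log2 fold change was −0.44 (SE 0.09, 95% interval −0.65 to −0.22), with an adjusted p of 0.138 in limma and 0.00326 in DESeq2. Among the 8 genes apoea had the smallest standard error, and without replicate 2 of both genotypes its estimate was −0.42 (adjusted p = 0.288 from limma).

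**Figure D3:**
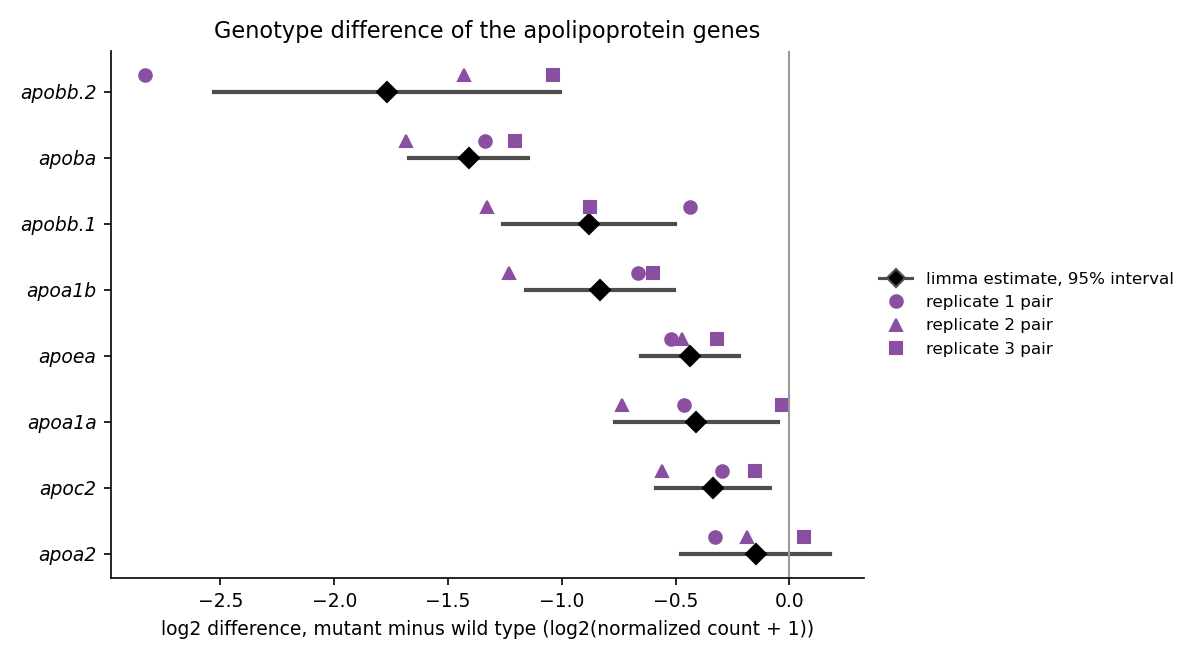
Log2 difference between mutants and wild type (x axis, on the log2(normalized count + 1) scale) for the 8 apolipoprotein genes with counts (y axis, in order of the estimate), with the limma estimate and its 95% interval (diamond and line) and the difference of each pair of equal replicate number (purple symbols). The intervals are those of the fit with the replicate 2 term. There the interval of apoa2, −0.47 to 0.18, crosses 0 and the others lie below it. Of the pair values, apoa2 in pair 3 is the only one above 0.

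apoc1 (ENSDARG00000092170, chromosome 16 from 23972126 to 23973721) and apoeb (ENSDARG00000040295, chromosome 16 from 23960744 to 23963461) were listed at 0 in all 6 libraries. At a count of 0 the exact Poisson 95% interval, which covers counting error only, ends at 2.13 to 2.72 normalized counts, depending on the library. apoeb is a widely used marker of the yolk syncytial layer and of microglia, and apoc1 is its neighbour in an apolipoprotein cluster that also holds apoa4b paralogs, apoc4, apoa2 and apoc2. In the annotation of the table both genes lie wholly within the span of nbn, a DNA repair gene whose model runs from 23837847 to 23977525 and ends at the last base of apoc4. Of the 9 genes within that span, 8 were listed at 0 in every library, and 6 of these are apolipoprotein genes. The ninth, osgin2, had 5.85 to 17.7 normalized counts. apoa2, which had 65209 normalized counts or more in every library, begins 1453 bases past the end of nbn.

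A value of 0 was common for genes in this position. Of 25432 protein-coding genes in the table, 1792 lie wholly within the span of another protein-coding gene, and 966 of these (53.9%) were listed at 0 in all libraries. Of the 23640 others, 781 (3.30%) were. This position did not always go with a 0, since apobb.1 lies wholly within hpcal1 (chromosome 20 from 31232923 to 31308805), a gene with 191 to 266 normalized counts. Strands were not compared in these counts, although the libraries were stranded. Whether apobb.1 in hpcal1 is a like case to apoeb in nbn was therefore not tested. nbn had 4654, 3426 and 5631 normalized counts in the wild-type pools and 4643, 2036 and 5684 in the mutant pools, and its profile over the 6 libraries ranked 17th in likeness to that of apoc2 among 16132 genes (root mean square log2 difference 0.148). Its likeness to the nearer neighbour apoa2 ranked 820th (0.294), and that to apoea, on another chromosome, 556th (0.270). How reads that overlap both nbn and a gene within it were counted was not tested, and no level of apoc1 or apoeb can be drawn from these values.

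**Figure D4:**
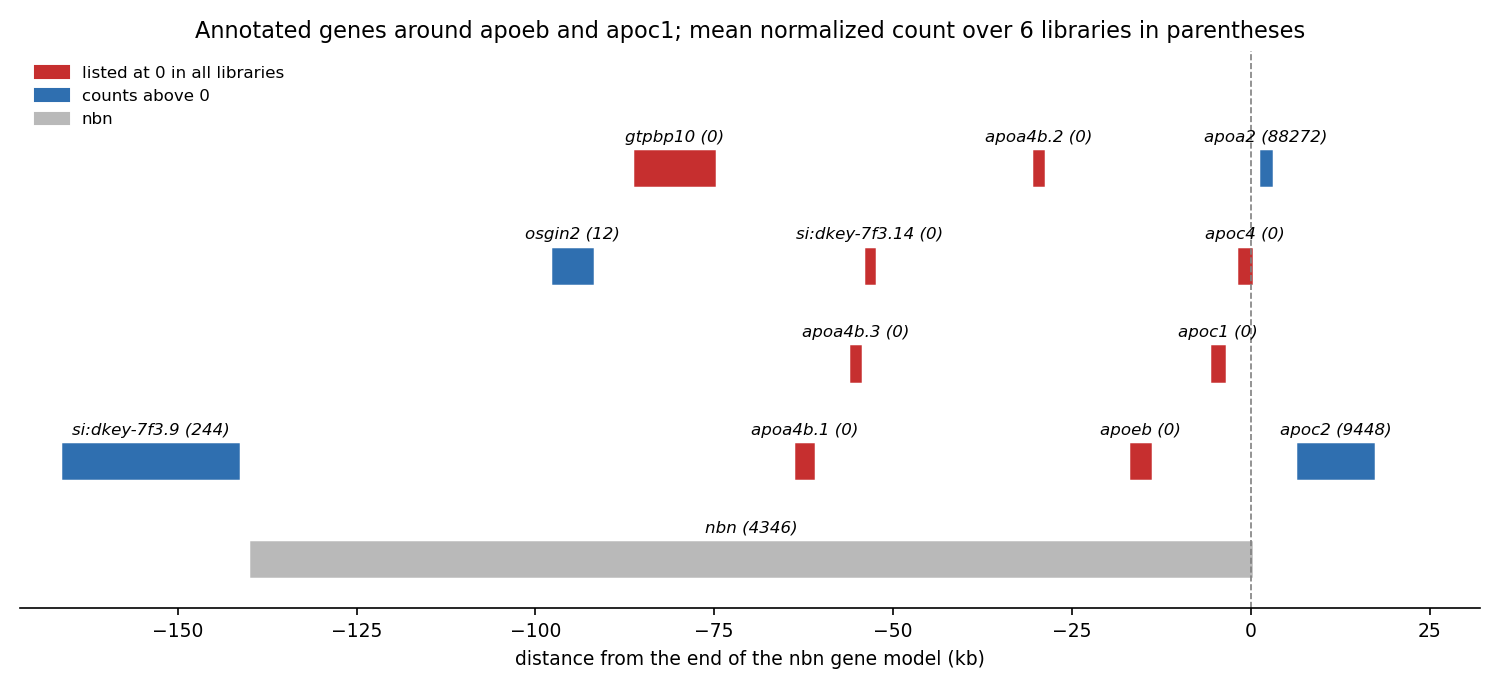
Annotated genes around apoeb and apoc1, by distance from the end of the nbn gene model in kilobases (x axis, to scale), with the mean normalized count over 6 libraries in parentheses; the rows only separate the labels. The 8 genes in red were listed at 0 in all libraries and lie within the nbn span (grey), where osgin2 alone of the genes inside had counts.

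Replicate 2 of both genotypes differed from replicates 1 and 3 in most of these genes, and the paralogs did so in opposite directions. For apobb.2 the mean log2 value of replicate 2 exceeded that of replicates 1 and 3 by 3.28 in wild type and 3.79 in mutants, an 11.6-fold difference on average. apoba was higher in replicate 2 by 0.95 and 0.54, whereas apobb.1 was lower, with differences of −0.23 and −0.90. The other genes were lower too: apoa1b by −0.88 in wild type and −1.48 in mutants, apoc2 by −0.89 and −1.23, apoea by −0.62 and −0.67, and apoa2 by −0.45 and −0.50. apoa1a differed by −0.00 and −0.49. Both replicate 2 libraries lay below the other 4 for 4 of the 8 genes and above them for 1, against 26.1% and 24.6% of all tested genes. The apolipoprotein genes held 2.73%, 2.20% and 2.71% of all reads in wild-type replicates 1, 2 and 3, against 2.01%, 1.30% and 2.13% in mutants. The 95% Wilson interval, which covers counting error only, was 1.30% to 1.31% in the lowest of these libraries and 2.72% to 2.74% in the highest.

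**Figure D5:**
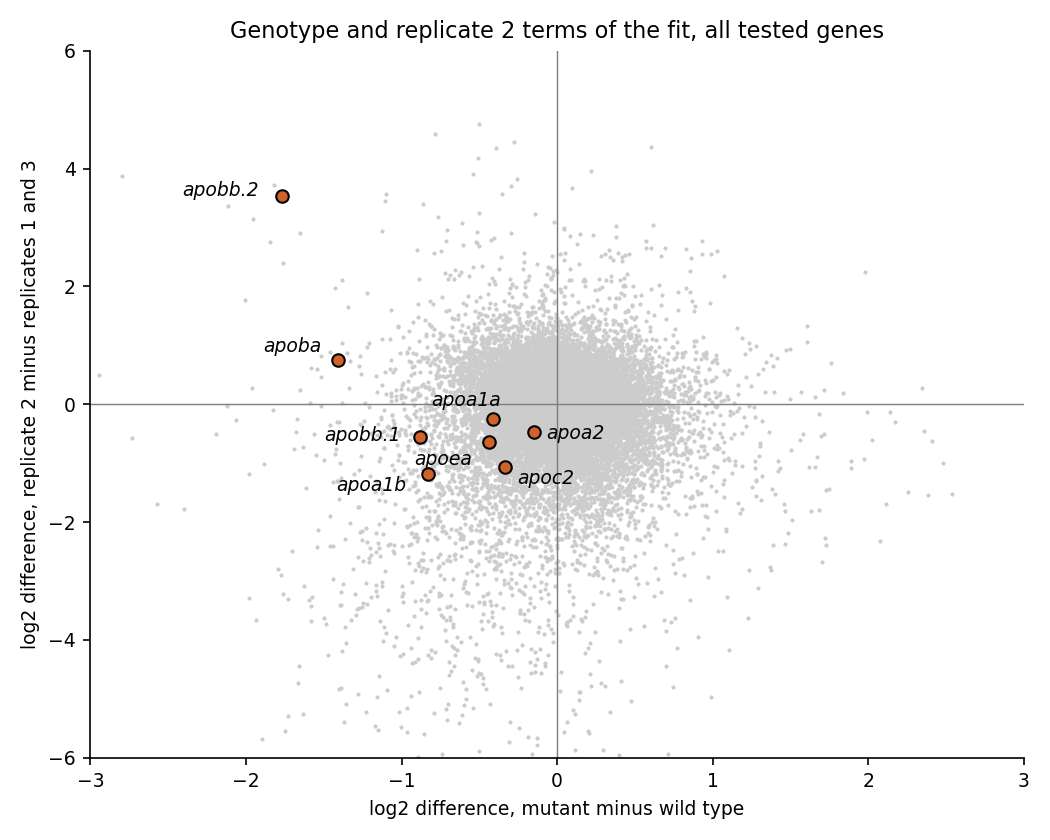
Genotype difference (x axis, log2, mutant minus wild type) against the difference of replicate 2 from replicates 1 and 3 (y axis, log2, mean of both genotypes) for the 8 apolipoprotein genes (orange) and all tested genes (grey); 73 of 21302 genes lie outside the axes. apobb.2 lies at −1.77 and 3.53 and apoba at −1.41 and 0.75, above the horizontal line, and the other 6 genes lie below it.

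Markers of the organs that make apolipoproteins were read from the same fit. Of 15 hepatocyte markers, 4 were called lower and 0 higher by limma, where 0.0751% of all tested genes were called lower. In every pair 13 were lower (20.6% of all tested genes were), and the median log2 fold change was −0.83. For 3 of the 15 all mutant libraries lay below all wild-type libraries, against 4.55% of all tested genes. The marker lists were chosen with earlier results of these data known, so their counts describe the data and are no independent support. The called genes were tfa, which encodes transferrin (−1.16, adjusted p = 0.0226), cp for ceruloplasmin (−1.14, adjusted p = 0.0226), vtna for vitronectin (−1.24, adjusted p = 0.0373) and serpina1 for an antiprotease (−0.83, adjusted p = 0.0390). DESeq2 called 9 of the 15 lower, against 1.82% of all tested genes. Summed over the list, the normalized counts were 38252 to 68549 in wild type and 18525 to 41587 in mutants. The called gene tfa gave more of these sums than any other gene of the list. It had 27865, 19281 and 24280 in the wild-type pools and 12174, 7936 and 12163 in the mutant pools. fabp10a, the defining liver marker, had 5253, 214 and 5447 normalized counts in the wild-type pools and 4554, 130 and 4020 in the mutant pools, so replicate 2 of both genotypes was low in it.

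Of the yolk syncytial layer markers, the transcription factor genes mxtx1 and mxtx2 were at or near 0 in every library, at 1.92 normalized counts or less, and were too low to be tested. Whether mxtx1 and mxtx2 mark the layer at this age was not tested, so no amount of the layer can be drawn from them. None of the 4 tested markers of that layer was called by limma or edgeR (2 had an unadjusted p under 0.05 in limma, as did 14% of all tested genes in either direction). DESeq2 called mttp alone of the 4, as lower, against 1.82% of all tested genes. The median log2 fold change of the 4 was −0.39. mttp, which loads lipid onto ApoB, had 1773, 522 and 1963 in the wild-type pools and 1616, 252 and 1073 in the mutant pools (difference −0.68 on the log2 scale, adjusted p = 0.185 from limma). hnf4a, which encodes a nuclear receptor of liver, gut and yolk syncytial layer, had a log2 fold change of −0.60 (adjusted p = 0.35 from limma). rbp4, the retinol carrier that gave most reads of the list, had a log2 fold change of 0.17 (adjusted p = 0.478 from limma) and was the higher in mutants in all 3 pairs, and the iron exporter gene slc40a1 had one of −0.18 (adjusted p = 0.581). The summed normalized counts of the layer's markers were 20475 to 56624 in the wild-type pools and 22025 to 63787 in the mutant pools. These sums mostly give the level of rbp4, whereas 3 of the 4 tested markers had a lower estimate in mutants. The 12 enterocyte markers had a median of −0.63. In every pair 4 of the 12 were lower (20.6% of all tested genes were) and 0 higher, so most were of mixed direction. Replicate 2 was far lower in this list, with a median difference of −6.06 from replicates 1 and 3 on the log2 scale. Of the 12 markers, 0 were called by limma and edgeR (4 at an unadjusted p under 0.05 in limma, against 14% of all tested genes in either direction). DESeq2 called 2 lower, fabp2 and vil1, against 1.82% of all tested genes. The sums of the 12 markers ranged from 2227 to 55926 in wild type and from 1384 to 29218 in mutants, and mostly give the levels of fabp2 and chia.2. Among the 12 markers vil1 (−1.89, adjusted p = 0.119 from limma) and cdx1b (−1.77, adjusted p = 0.185) had the lowest p. The part of these tissues in the apolipoprotein values was not tested.

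Lists of other tissues gave medians nearer 0. The median log2 fold change was −0.03 for 10 macrophage and microglia markers, −0.19 for 15 skeletal muscle markers, 0.05 for 10 epidermis markers and 0.00 for 10 neuron markers. Skeletal muscle was led by myl1 (−0.52, adjusted p = 0.126) and myhz2 (−0.61, adjusted p = 0.144), neurons by snap25a (0.39, adjusted p = 0.178) and syn2a (0.41, adjusted p = 0.203), epidermis by cldni (0.32, adjusted p = 0.279) and cyt1l (−0.45, adjusted p = 0.429), and macrophages by slc7a7 (−0.49, adjusted p = 0.220) and spi1b (0.56, adjusted p = 0.273), all from limma. None of these 8 values passed the threshold, and neither limma nor edgeR called any gene of the 4 lists. An unadjusted p under 0.05 in limma in either direction was found for 2 of 10 macrophage and microglia, 6 of 15 muscle, 1 of 10 epidermis and 4 of 10 neuron markers, against 14% of all tested genes. The 6 muscle markers were all lower in mutants, where 7.9% of all tested genes were lower at that p. Of the 15 muscle markers, 6 were lower in every pair (20.6% of all tested genes were) and 0 higher. DESeq2 called 3 muscle markers lower (acta1b, myhz2 and myl1), against 1.82% of all tested genes.

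The genes that act with apolipoproteins were counted in the same fit, and none of them was called by limma or edgeR. Of 17 genes of lipoprotein assembly and secretion, 14 had a lower estimate (10492 of all 21302 tested genes did), 7 were lower in every pair (20.6% of all tested genes were) and 4 had all mutant libraries below all wild-type libraries (4.55% of all tested genes), with a median log2 fold change of −0.28. In limma 5 had an unadjusted p under 0.05, against 14% of all tested genes in either direction. DESeq2 called 3 lower (creb3l3a, mttp and pla2g12b), against 1.82% of all tested genes. The lowest p were those of creb3l3a, a membrane-bound transcription factor of liver and intestine (131, 117 and 141 against 82.5, 67.7 and 57.4 normalized counts, log2 fold change −0.91, adjusted p = 0.127 from limma), and pla2g12b, which acts in the lipid loading of ApoB particles (4376, 3753 and 4033 against 3412, 1952 and 2596, −0.65, adjusted p = 0.145). In both genes the groups did not overlap.

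The receptors and their regulators numbered 23 tested genes, with a median of −0.13, 3 without overlap below wild type and 1 above, where 4.55% and 5.07% of all tested genes lay so. cubn, an endocytic receptor that binds ApoA1 in mammals, had the lowest p (log2 fold change −1.42, adjusted p = 0.176 from limma), and it passed with the replicate number as a block (adjusted p = 0.0399). lrp2a, the megalin that works with it, had a log2 fold change of −1.05 (adjusted p = 0.188 from limma). The low-density lipoprotein receptor genes ldlra and ldlrb had log2 fold changes of −0.01 and −0.08. An unadjusted p under 0.05 in limma was found for 5 of the 23, against 14% of all tested genes in either direction. DESeq2 called cubn and lrp2a lower, against 1.82% of all tested genes. Of 14 lipases and remodelling genes the median was −0.05, and abca1b, which loads lipid onto ApoA1 (−0.45, adjusted p = 0.189 from limma), and pltp, a phospholipid transfer gene (−0.34, adjusted p = 0.289), had the lowest p. In limma 4 of the 14 were under 0.05 unadjusted, against 14% of all tested genes in either direction, and DESeq2 called 0. The 7 other apolipoprotein genes with enough counts had a median of −0.13, led by apoda.2 (−0.71, adjusted p = 0.179) and apom (−0.15, adjusted p = 0.657 from limma). Of the 7, DESeq2 called apoda.2 alone, as lower, against 1.82% of all tested genes. Among 23 transcription regulators of apolipoprotein genes the median was −0.24, and 17 had a lower estimate, as did 10492 of all 21302 tested genes. Of these regulators, hnf1ba (−1.55, adjusted p = 0.158) and the bile acid receptor gene nr1h4 (−1.23, adjusted p = 0.158 from limma) had the lowest p. Both were called lower by DESeq2, against 1.82% of all tested genes. In limma 5 of the 23 had an unadjusted p under 0.05, against 14% of all tested genes in either direction.

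The genes whose profiles over the 6 libraries were most like each ApoB paralog were found by the root mean square difference of centred log2 values among 16132 genes whose mean reached 50. Nearest to apoba were oatx (0.147), sardh (0.170), LO017815.1 (0.222), cfhl2 (0.227) and spam1 (0.227). Like apoba, these 5 had their highest wild-type value in replicate 2, as oatx did with 113, 235 and 103 in the wild-type pools and 49.4, 67.7 and 37.5 in the mutant pools. Nearest to apobb.1 were crb2b (0.0892), ryr3 (0.137), itih3a (0.147), tcn2 (0.161) and itih2 (0.163), all lowest in mutant replicate 2. For apobb.2 the nearest were cyp2aa9 (0.357), zgc:86738 (0.393), slc39a5 (0.501), epb41b (0.771) and hbae1.3 (0.781), and cyp2aa9 had 59.8, 376 and 56.2 in the wild-type pools and 5.85, 165 and 13.2 in the mutant pools. The lists for the 3 paralogs share no gene, and the distances for apobb.2 were larger than for the other paralogs. The neighbours were picked by these same values, so a shared peak or separate lists follow from the choice. The distance was not scaled to the range of a profile, and apobb.2 ranged from 7.15 to 420.3 normalized counts. Its distances therefore do not compare its likeness with that of the other paralogs.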

How the data were processed

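RNA-seq of 3 wild-type and 3 dscaml1 mutant pools was compared, with genotype and replicate number from the sample labels and 0 per-sample columns left unmapped. The deposited signal values are gene read counts, each library scaled by the authors with 1 size factor. The submitters' processing notes name TopHat2, HISAT2, HTSeq and GRCz11, with roles and versions not given in the sources used here, and the methods describe stranded libraries. The deposited log2 fold changes, p-values and likelihood ratio statistic (a score) are the authors' own comparison from DESeq2 and were not used. Divided by the value of 1 read, 100% of the values came out whole (tolerance 0.001 reads), and edgeR on these reads called 18 genes, 14 lower and 4 higher.

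The test was limma on log2(value + 1) with its trend of variance on the mean, a scale that understates changes of low genes, over genes with a mean of at least 5, with genotype and a term that sets both replicate 2 libraries apart. The term was kept from an earlier account of these data, and the methods name no covariate. The fit left 3 residual degrees of freedom. All p-values refer to the spread between pools. Within a genotype, every pair of libraries differed by more than sampling noise (chi-square over its degrees of freedom, 22.1 to 142). Deviations from the genotype means correlated at r = 0.65, 0.86 and 0.70 between libraries of equal replicate number, over 21302 genes that are not independent replicates, and from −0.74 to 0.50 otherwise, so the numbers were taken to pair the libraries.

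The members and lists were chosen with earlier results of these data known. The text names all 10 members, up to 4 called genes of each list or its 2 of lowest p, and the 5 profiles nearest to each ApoB paralog. Outside that rule nbn, osgin2, hpcal1, fabp10a, rbp4, slc40a1, mxtx1, mxtx2, chia.2, ldlra, ldlrb and the genes that DESeq2 alone called were named. No lengths or sequences were used here, so the planned division of ApoB reads by coding length was not run. The deposited table gave the symbols and the GRCz11 coordinates. Alternatives were other pseudocounts, low-value filters, scaling by TMM, the replicate block, the quasi-likelihood test of edgeR and the likelihood ratio test of DESeq2, each library left out in turn and both replicate 2 libraries left out. The limma, edgeR and DESeq2 fits were tried on simulated counts that held no replicate 2 shift and no pairing. The permutation test was tried on small sets of numbers with a known answer. These trials do not cover the replicate 2 shift of the real libraries. Tools were R 4.3.3, limma 3.58.1, edgeR 4.0.16, DESeq2 1.42.0, Python 3.11.15, scipy 1.17.1, numpy 2.4.6, matplotlib 3.10.9 and pandas 2.3.3.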

Additional observations from a re-analysis of the deposited data

How the results depend on the processing

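The 8 apolipoprotein genes kept a lower estimate in all 14 limma alternatives, and apoba was called in 7 of them. The count of apolipoprotein genes called was 0 without the replicate 2 term and without both replicate 2 libraries, and 0 to 1 with one library left out, 1 only without mutant replicate 1. DESeq2 called 5, also with the replicate number as a block (chosen after seeing the data), and left 2478 adjusted p-values undefined. Of all genes, 0 were called without the replicate 2 term (791 at an unadjusted p under 0.05), 0 without both replicate 2 libraries (2563 at an unadjusted p under 0.05), and 0 to 12 with one library left out in limma. The replicate block in limma gave 47, and left the apolipoprotein calls at apoba alone (adjusted p = 0.0274). DESeq2 gave 581, and with the pairing as a block edgeR gave 50 and DESeq2 652, both chosen after seeing the data. The mutant minus wild-type difference in the log2 ratio of apobb.2 to apobb.1 ranged from −2.45 to 0.28 with one library left out, with 0.28 when wild-type replicate 2 was left out and 0.17 when mutant replicate 1 was, the opposite sign to the full value, where the genotypes hold unequal numbers of replicate 2 libraries; it was −1.28 without both replicate 2 libraries. That of apoba to apobb.2 ranged from −0.42 to 1.44, with −0.42 and −0.41, again of opposite sign, without the same libraries, and that of apoba to apobb.1 from −1.01 to −0.14. Why the counts moved was not tested. Of the 8 tested genes, depth limits apobb.2 most, with 11 reads in mutant replicate 1.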

Other observations

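Some genes of the lipoprotein lists differed far more between replicate 2 and the other libraries than between genotypes, and they were picked after their values were seen. apoda.2, a lipocalin-type apolipoprotein gene, had 15696, 117 and 22112 normalized counts in the wild-type pools (replicates 1, 2 and 3), against 14040, 50.4 and 13063 in mutants. lipca, which encodes hepatic lipase, had 117, 1.15 and 108 normalized counts in the wild-type pools, against 123.5, 1.92 and 114 in mutants. The low-density lipoprotein receptor gene ldlra had 1049, 156 and 1106 in the wild-type pools, against 827, 152 and 1398 in mutants. Within each genotype all 3 genes were lowest in replicate 2, as were apobb.1, apoa1b, apoa2, apoc2 and apoea, whereas apoba and apobb.2 were highest there.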
